A study of Mus musculus with 3 samples.

Results

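The T cell receptor complex and its first signalling partners are described here through 10 genes: Cd3d, Cd3e, Cd3g, Cd247, Lat, Lck, Zap70, Cd4, Cd8a and Cd8b1. They were chosen by name, and every probe whose RefSeq accession leads to one of these symbols was used. This gave 13 probes on 31 spots of each array, out of 39112 probes, for 10 of the 20546 genes that could be named. The receptor of a T cell binds peptide held by MHC molecules through its variable chains, which do not signal themselves. The CD3 chains and the zeta chain, encoded by Cd247, carry the signal inward. The kinase Lck, brought in by the coreceptors CD4 or CD8, phosphorylates them, Zap70 docks on the marks and the adaptor Lat spreads the signal. In a spleen, T cells carrying this machinery fill the T zones of the white pulp, and in liver, T cells are found in the sinusoids and portal tracts.

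The study hybridised RNA of female mice to Agilent arrays with a single dye, 1 array for each of 3 groups. The SiO2-3TF-3C spleen had been given SiO2 (silica) and a further treatment that the labels name 3TF-3C without spelling it out. Liver came from normal mice and served the study as its positive control. The SiO2 spleen had been given silica, which the spleen of the other treatment also received, and both kinds of spleen were taken at day 82. The series design says that 5 samples were pooled by group, and it does not settle whether this covers the liver. The mouse strain and age were not stated. The question set by the series design was how the SiO2-3TF-3C spleen and liver differ from the SiO2 spleen. With 1 array per group no test between groups can be made, and precision is limited by having so few arrays.

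Signals are given on a log2 scale relative to the 75th percentile of the same array, so that 0 marks that percentile. The number after ± is the technical error that the scanner software assigns to a signal or, for a difference, the error of both signals combined. It leaves out the spread between animals. Members were described by a rule of size, in which a difference counts from 2-fold up or down. Well above background were 81.3% of spots for the SiO2-3TF-3C spleen, 77.2% for liver and 79.9% for the SiO2 spleen, and 0 spots were saturated. All 13 member probes were well above background on all 3 arrays. The fixed hepatocyte genes were at least 2-fold higher than in the SiO2 spleen for 14 of 14 genes in the SiO2-3TF-3C spleen and for 14 of 14 in liver, with a median of 8.17 log2 in the SiO2-3TF-3C spleen and 10.49 in liver (3 of the 14 being bounds, since they were dim in the SiO2 spleen). Spleen organ regulators were also well above background on the liver array for 7 of 7 genes. Among them Tlx1, a homeobox gene needed for the spleen to form, had an intensity, before scaling, of 290 in the SiO2-3TF-3C spleen, 76.2 in liver and 351 in the SiO2 spleen.

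Set against the SiO2 spleen, 9 of the 10 genes had a lower signal in the SiO2-3TF-3C spleen (7 of 10 when arrays were scaled to B cell genes), but none differed by 2-fold (0 of 10). Of the 17639 genes measured in that comparison, 1.39% were at least 2-fold lower and 5.24% at least 2-fold higher. In liver, 7 of 10 were at least 2-fold lower than in the SiO2 spleen, where 17.0% of 17358 genes were, and the sizes ranged widely, from Lat at -2.32 to Cd4 at -0.18. Scaled to B cell genes, 7 of 10 still lay below the SiO2 spleen and 2 of 10 were at least 2-fold lower. At that scaling 305 of 16911 genes were at least 2-fold lower, and the median of all genes was 0.69. Between the SiO2-3TF-3C spleen and liver, 5 of 10 were at least 2-fold higher in the spleen, where 10.7% of 17212 genes were, while 15.9% of those genes were at least 2-fold lower. With B cell scaling 2 of 10 were at least 2-fold higher in the spleen, where 701 of 16996 genes were. In bulk tissue RNA, fewer cells of a type and less RNA per cell cannot be told apart.

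**Figure D1:**
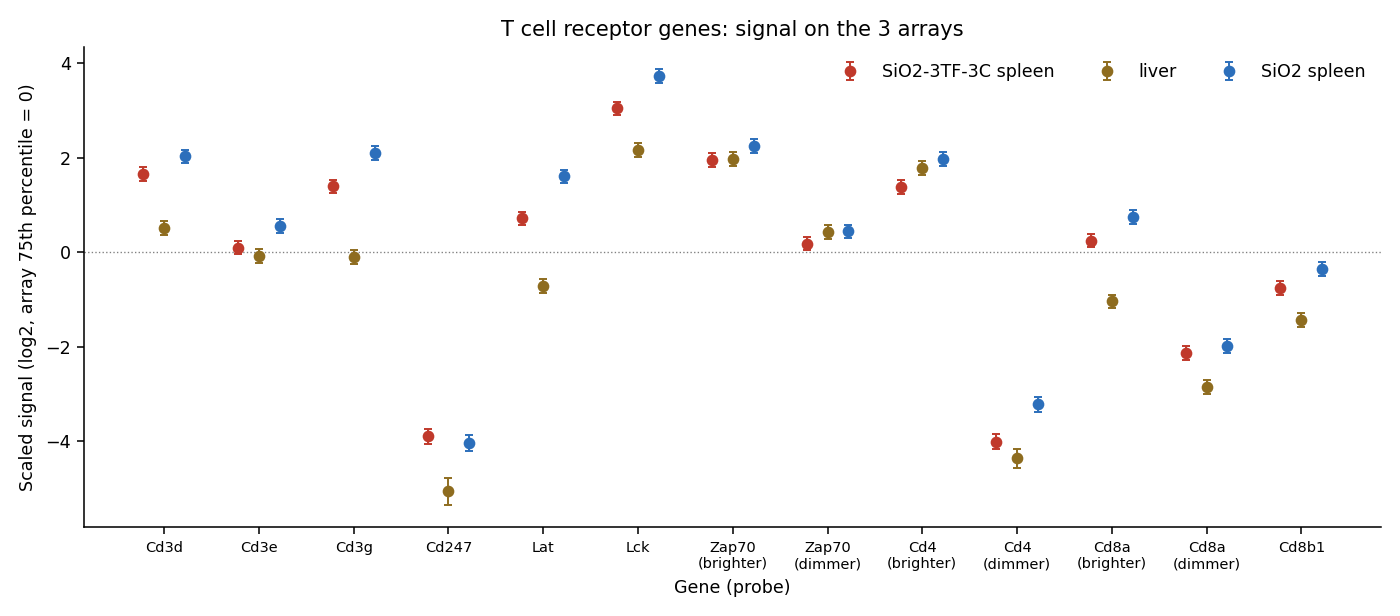
Scaled signal of the 13 probes of the 10 genes (y axis, log2, 75th percentile of each array at 0) on the SiO2-3TF-3C spleen, liver and SiO2 spleen arrays, with the technical error as bars. The SiO2 spleen point lies above the SiO2-3TF-3C spleen point for 12 of 13 probes and above the liver point for 13 of 13, and heights of different probes are not comparable.

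The CD3 genes are described first. Cd3g, Cd3d and Cd3e encode the gamma, delta and epsilon chains that pair around the receptor, and the 3 genes lie in 1 stretch of chromosome 9. The RefSeq windows from 250 bases before to 50 bases after the start of transcription are shown because the 3 neighbours differed on the liver array, and the window of Lat because its difference was the most negative of the 10 in both comparisons with the SiO2 spleen. On the GRCm38.p6 build, Cd3g lies at chr9:44980382-44980681 on the minus strand, Cd3d at chr9:44981536-44981835 on the plus strand, Cd3e at chr9:45009562-45009861 on the minus strand and Lat at chr7:126369519-126369818 on the minus strand. Capitals mark matches on either strand to 6 short motifs. The E-box was searched as CANNTG. The motif read by GATA factors was searched as AGATAA. That of RUNX factors was searched as TGTGGT. That of ETS factors was searched as AGGAAG. The TATA box was searched as TATAAA. The GC box was searched as GGGCGG.
Cd3g: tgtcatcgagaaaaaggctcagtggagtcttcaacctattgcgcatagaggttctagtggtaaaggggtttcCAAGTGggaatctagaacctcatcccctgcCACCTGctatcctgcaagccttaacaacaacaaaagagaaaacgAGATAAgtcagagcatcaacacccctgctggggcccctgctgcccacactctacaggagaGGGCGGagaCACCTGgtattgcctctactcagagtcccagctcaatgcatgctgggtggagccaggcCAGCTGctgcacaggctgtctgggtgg
Cd3d: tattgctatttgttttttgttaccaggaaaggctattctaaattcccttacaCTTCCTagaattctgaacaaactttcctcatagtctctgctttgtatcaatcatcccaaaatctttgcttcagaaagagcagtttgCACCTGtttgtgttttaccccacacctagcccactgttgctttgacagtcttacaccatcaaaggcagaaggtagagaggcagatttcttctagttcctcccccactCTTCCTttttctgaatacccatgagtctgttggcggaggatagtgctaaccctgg
Cd3e: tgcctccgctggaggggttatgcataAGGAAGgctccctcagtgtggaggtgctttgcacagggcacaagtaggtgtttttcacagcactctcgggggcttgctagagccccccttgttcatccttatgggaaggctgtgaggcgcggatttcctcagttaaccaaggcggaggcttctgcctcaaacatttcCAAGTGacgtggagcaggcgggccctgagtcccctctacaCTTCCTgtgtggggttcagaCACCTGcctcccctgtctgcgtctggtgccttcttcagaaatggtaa
Lat: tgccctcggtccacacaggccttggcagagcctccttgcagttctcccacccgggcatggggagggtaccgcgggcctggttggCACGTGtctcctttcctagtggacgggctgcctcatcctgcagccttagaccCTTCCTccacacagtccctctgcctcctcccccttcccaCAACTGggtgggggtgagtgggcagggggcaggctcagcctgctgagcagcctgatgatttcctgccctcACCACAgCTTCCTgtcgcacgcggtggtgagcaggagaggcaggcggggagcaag

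Cd3g and Cd3d are read in opposite directions, with 1354 bases between their starts. The Cd3g window held 4 E-boxes, 1 GATA match and 1 GC box, and the Cd3d window 1 E-box and 2 ETS matches. The Cd3e window held 2 E-boxes and 2 ETS matches. The Lat window held 2 E-boxes, 2 ETS matches and 1 RUNX match, and in none of the 4 windows did matches of different motifs overlap (0 bases). RefSeq windows were matched for 8 of the 10 genes, 11 windows in all, since Lck has 2 and Zap70 3. Over those 11, an E-box was in 11, where 72.3% of all 32851 windows held one. ETS letters were in 8, against 35.4% of all windows, and RUNX letters were in 3, against 16.8%. GC box letters were in 2, against 35.7%, GATA letters in 1, against 11.2%, and TATA letters in 0, against 13.6%. The median GC content was 57.3% for the 11 windows and 52.7% for all windows. A match describes letters and shows no binding.

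Cd3g stood at 1.40 in the SiO2-3TF-3C spleen, -0.10 in liver and 2.10 in the SiO2 spleen. Its signal was highest in the SiO2 spleen and lowest in liver, a difference of -0.70 ± 0.20 for the SiO2-3TF-3C spleen (1.63-fold lower) and of -2.20 ± 0.20 for liver (4.59-fold lower). Cd3d, whose product is the partner of CD3 epsilon on the other side of the receptor, stood at 1.66 in the SiO2-3TF-3C spleen, 0.51 in liver and 2.03 in the SiO2 spleen. The order of the samples was that of Cd3g, with smaller gaps of -0.37 ± 0.20 for the SiO2-3TF-3C spleen and -1.52 ± 0.20 for liver (2.87-fold lower). Between the neighbours, the liver difference was less negative for Cd3d than for Cd3g by 0.68 ± 0.29.

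Cd3e stood at 0.10 in the SiO2-3TF-3C spleen, -0.08 in liver and 0.55 in the SiO2 spleen. Here both other samples lay close together below the SiO2 spleen, at -0.45 ± 0.20 for the SiO2-3TF-3C spleen and -0.63 ± 0.20 for liver, so that liver stayed under 2-fold. The SiO2-3TF-3C spleen minus liver was 0.18 ± 0.20 for Cd3e, less than its technical error, against 1.15 ± 0.20 for Cd3d and 1.50 ± 0.20 for Cd3g. Each of these genes rests on 1 probe.

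Cd247, the zeta chain that holds most of the signalling motifs of the complex, was dim, with an intensity of 34.7 in the SiO2-3TF-3C spleen, 11.7 in liver and 34.6 in the SiO2 spleen. The lowest intensity well above background was 7.04 on the SiO2-3TF-3C spleen array, 8.20 on the liver array and 8.63 on the SiO2 spleen array, so the liver value lay near that limit. It was the exception among the 10 in the spleen comparison, at 0.15 ± 0.23, which is within its technical error. Against Cd3e, its difference was higher by 0.60 ± 0.31. For liver the difference was -1.02 ± 0.34, just past 2-fold, and it turned to 0.10 under normexp background correction. The constant regions of the receptor chains themselves, 7 genes of a list, had no named probe (0 of 7) and were not analysed here.

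Among the signalling genes, Lat encodes the membrane adaptor on which the downstream enzymes gather. It stood at 0.72 in the SiO2-3TF-3C spleen, -0.71 in liver and 1.61 in the SiO2 spleen. These values lie far apart beside the technical errors, with -0.89 ± 0.20 for the SiO2-3TF-3C spleen (1.85-fold lower) and -2.32 ± 0.20 for liver (4.99-fold lower). Over all genes measured, 2.03% lay at or below the Lat value in the comparison of the spleens. The SiO2-3TF-3C spleen minus liver was 1.43 ± 0.20.

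Lck, the Src family kinase that starts the cascade, stood at 3.05 in the SiO2-3TF-3C spleen, 2.17 in liver and 3.73 in the SiO2 spleen. Its order over the samples was the same as for Lat. The differences were -0.69 ± 0.20 for the SiO2-3TF-3C spleen (1.61-fold lower) and -1.56 ± 0.20 for liver (2.95-fold lower).

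Zap70, the kinase that binds the phosphorylated chains, has 2 probes and behaved differently on the liver array. Its brighter probe stood at 1.96 in the SiO2-3TF-3C spleen, 1.98 in liver and 2.26 in the SiO2 spleen. Its dimmer probe stood at 0.19 in the SiO2-3TF-3C spleen, 0.43 in liver and 0.44 in the SiO2 spleen. Neither probe showed liver below the SiO2 spleen by more than 1.96 technical errors, with -0.28 ± 0.20 for the brighter and -0.01 ± 0.20 for the dimmer. For liver minus SiO2 spleen, Zap70 thus lay above Lck by 1.28 ± 0.29. In the comparison of the spleens the gap between the same genes was 0.39 ± 0.29, with Zap70 at -0.30 ± 0.20.

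**Figure D2:**
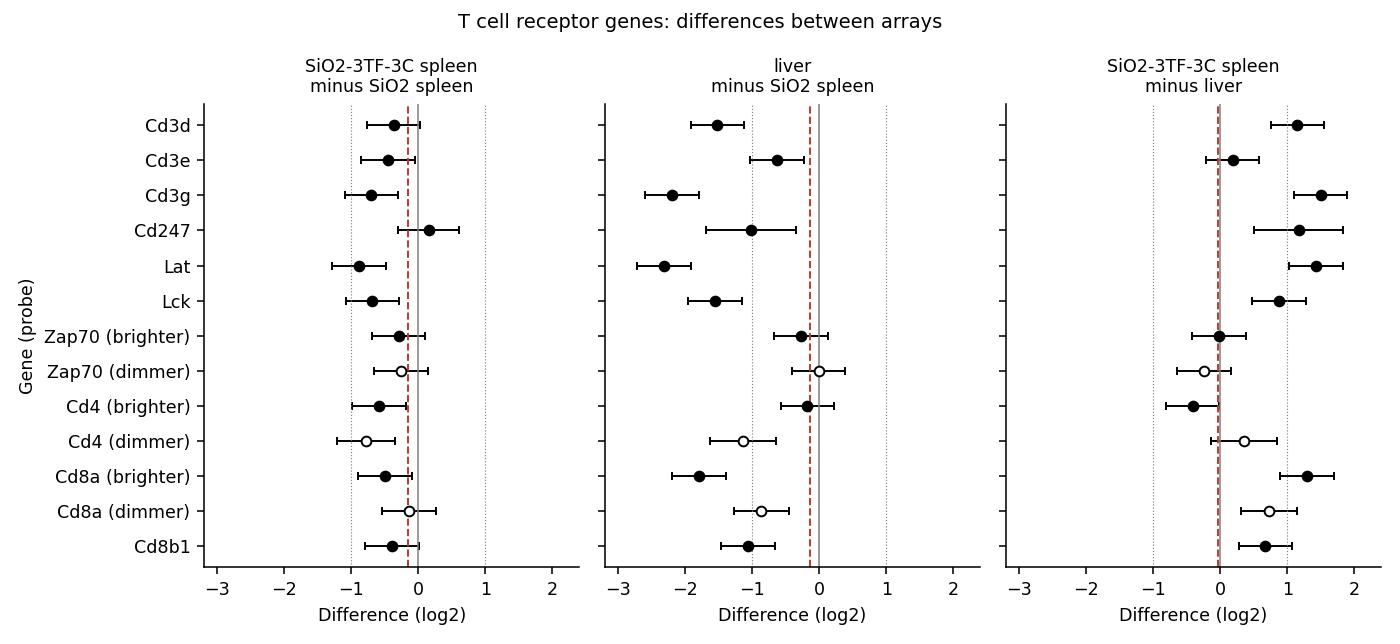
Log2 differences of the 13 probes (x axis) for SiO2-3TF-3C spleen minus SiO2 spleen, liver minus SiO2 spleen and SiO2-3TF-3C spleen minus liver, with bars of 1.96 technical errors; filled points are the brightest probe of a gene and open points its other probe. Dotted lines mark 2-fold and the dashed line the median of all genes (-0.15, -0.14 and -0.03). The points lie within 2-fold in the left panel and spread from -2.32 to -0.01 in the middle panel.

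The coreceptors mark the helper and cytotoxic branches of T cells, and Cd4 is also made by some splenic dendritic cells. Cd4 has 2 probes that gave different answers for liver. The brighter stood at 1.38 in the SiO2-3TF-3C spleen, 1.79 in liver and 1.97 in the SiO2 spleen. By this probe the SiO2-3TF-3C spleen was lowest, with -0.59 ± 0.20 for the SiO2-3TF-3C spleen and -0.18 ± 0.20 for liver against the SiO2 spleen. The dimmer probe is printed on 10 spots of the array, and 1 of them was left out as an outlier for the SiO2-3TF-3C spleen. Its spots had intensities of 27.4 to 36.2 (median 32.9, n = 9 spots) in the SiO2-3TF-3C spleen, 16.6 to 21.8 (median 19.1, n = 10) in liver and 58.1 to 66.5 (median 60.3, n = 10) in the SiO2 spleen. These intensities are not yet scaled. On the scaled axis the spots spanned -4.23 to -3.83 in the SiO2-3TF-3C spleen, -4.55 to -4.16 in liver and -3.29 to -3.10 in the SiO2 spleen. By this probe liver was lowest on average, its spots overlapped those of the SiO2-3TF-3C spleen, and the SiO2 spleen lay apart from both. Spots of 1 array share their RNA and are no replicates of a condition. Its differences were -0.79 ± 0.22 for the SiO2-3TF-3C spleen and -1.14 ± 0.25 for liver. The probes of Cd4 thus agreed on the direction in the SiO2-3TF-3C spleen, where they lay 0.19 ± 0.30 apart, and differed by 0.96 ± 0.32 for liver. The authors' deposited table holds the dimmer probe of Cd4 alone and puts liver at -1.24 against the SiO2 spleen.

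Cd8a, the alpha chain found in every CD8 coreceptor, is also made by a subset of dendritic cells. Its brighter probe, likewise printed on 10 spots with 1 left out for the SiO2-3TF-3C spleen, gave intensities of 588 to 702 (median 598, n = 9 spots) in the SiO2-3TF-3C spleen, 175 to 204 (median 192, n = 10) in liver and 890.2 to 1001 (median 976, n = 10) in the SiO2 spleen. The 3 sets of spots were apart, on the scaled axis too, with liver lowest. The scaled means were 0.25 ± 0.08 in the SiO2-3TF-3C spleen, -1.04 ± 0.09 in liver and 0.76 ± 0.06 in the SiO2 spleen (SD over spots, n = 9, 10 and 10 spots). The differences were -0.50 ± 0.20 for the SiO2-3TF-3C spleen and -1.79 ± 0.20 for liver (3.47-fold lower). The dimmer probe of Cd8a gave -0.14 ± 0.21 for the SiO2-3TF-3C spleen and -0.87 ± 0.21 for liver, the same direction with a smaller size.

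**Figure D3:**
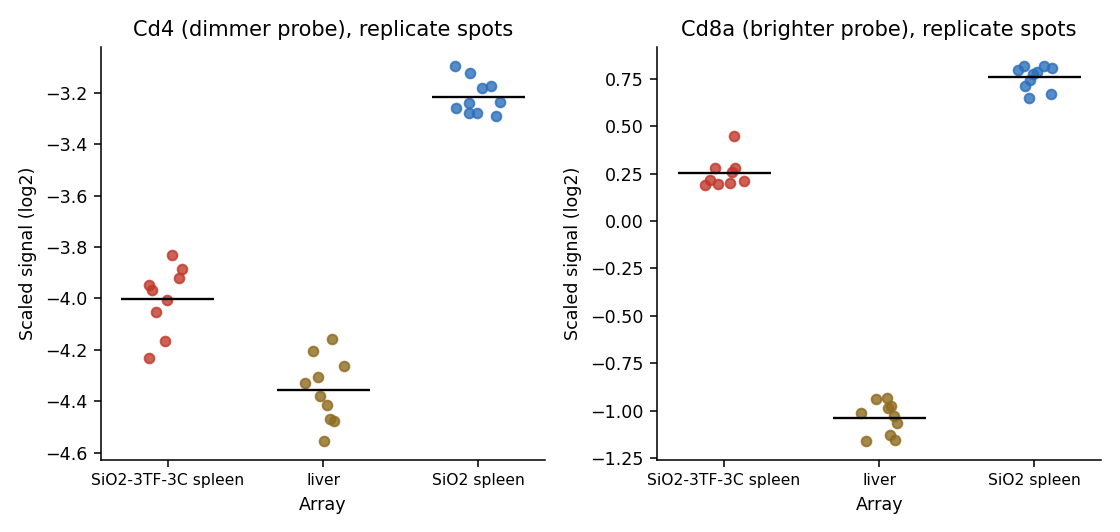
Scaled log2 signal (y axis) of the replicate spots of the dimmer Cd4 probe and the brighter Cd8a probe on the SiO2-3TF-3C spleen, liver and SiO2 spleen arrays; each point is a spot (9, 10 and 10) and the line is their mean. For Cd8a the spots of the 3 arrays do not overlap. For Cd4 those of the SiO2-3TF-3C spleen and liver overlap, and the SiO2 spleen is highest for both probes.

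Cd8b1, the beta chain that pairs with the alpha chain on cytotoxic T cells, stood at -0.75 in the SiO2-3TF-3C spleen, -1.42 in liver and -0.35 in the SiO2 spleen. It followed the order of Cd8a with smaller gaps, -0.40 ± 0.20 for the SiO2-3TF-3C spleen and -1.07 ± 0.20 for liver (2.10-fold lower). Between the coreceptor branches, Cd4 minus Cd8a was -0.09 ± 0.29 in the comparison of the spleens, within the technical error. For liver the brighter probes put Cd4 above Cd8a by 1.61 ± 0.29 and above Cd8b1 by 0.89 ± 0.29. Both the size and the direction of these gaps depend on which probes are read. The dimmer Cd4 probe, at -1.14 ± 0.25, lay above the brighter Cd8a probe at -1.79 ± 0.20. It did not lie above the dimmer Cd8a probe at -0.87 ± 0.21 or above Cd8b1 at -1.07 ± 0.20.

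Set side by side, the median difference of the 10 genes was -0.48 for the SiO2-3TF-3C spleen (1.39-fold lower) and -1.30 for liver (2.46-fold lower), each against the SiO2 spleen, and these comparisons share the SiO2 spleen array. The medians of all genes were -0.15 for the SiO2-3TF-3C spleen and -0.14 for liver. In the comparison of the spleens, 65.6% of all genes lay below 0, and in that of liver 56.2%. The members spanned -0.89 to 0.15 in the SiO2-3TF-3C spleen, and 6 of 10 exceeded 1.96 technical errors. They spanned -2.32 to -0.18 in liver, and 8 of 10 exceeded 1.96 technical errors. These counts were taken from 0, and the share of all genes past the same limit is not given, so they do not set the members apart. Over all genes measured, 15.7% lay at or below the members' median in the comparison of the spleens and 9.68% in that of liver. For the SiO2-3TF-3C spleen minus liver the median was 1.01 (range -0.41 to 1.50), against -0.03 for all genes.

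The downstream parts of the pathway were read from a list of 33 further signalling genes. In the SiO2-3TF-3C spleen none of the 33 differed by 2-fold from the SiO2 spleen (0 lower, 0 higher), 30 were below 0 and the median was -0.46. Rasgrp1, which activates Ras after receptor triggering, was at -0.97. Sla2, an adaptor that dampens receptor signalling, was at -0.82, the adaptor Trat1 at -0.75 and the Tec family kinase Txk at -0.73. In liver 24 of the 33 were at least 2-fold lower than in the SiO2 spleen and 0 higher, with a median of -1.46. Rasgrp1 was at -1.51 there, Sla2 at -1.55, Trat1 at -1.48 and Txk at -1.72.

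Of 17 costimulatory and adhesion genes measured, 0 differed by 2-fold in the SiO2-3TF-3C spleen (median -0.23, 13 of 17 below 0), and 14 were at least 2-fold lower in liver (median -1.66). Cd7 was at -0.79 in the SiO2-3TF-3C spleen, the inhibitory receptor gene Btla at -0.71 and the scavenger-type coreceptor gene Cd6 at -0.65. The 4 genes above 0 are named after their values were seen, with Tigit at 0.55, Ctla4 at 0.32, Itgal at 0.22 and Pdcd1 at 0.12. Of 13 homing and cytokine receptors, 0 differed by 2-fold in the SiO2-3TF-3C spleen (median -0.46, 12 of 13 below 0) and 9 were at least 2-fold lower in liver (median -1.51). Ccr7, the receptor that guides cells to T zones, was at -0.71 in the SiO2-3TF-3C spleen and -1.51 in liver. Several of these genes, Btla and Ccr7 among them, are also made by B cells.

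Of 15 transcription factors of T cells, Lef1 was at least 2-fold lower in the SiO2-3TF-3C spleen at -1.07. The other named factors were at -0.69 for Ikzf1 and -0.62 for Runx3, and the median of the 15 was -0.32. In liver 12 of the 15 were at least 2-fold lower. Over the 4 T cell lists together, 1 of 78 genes was at least 2-fold lower in the SiO2-3TF-3C spleen and 59 of 78 in liver.

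**Figure D4:**
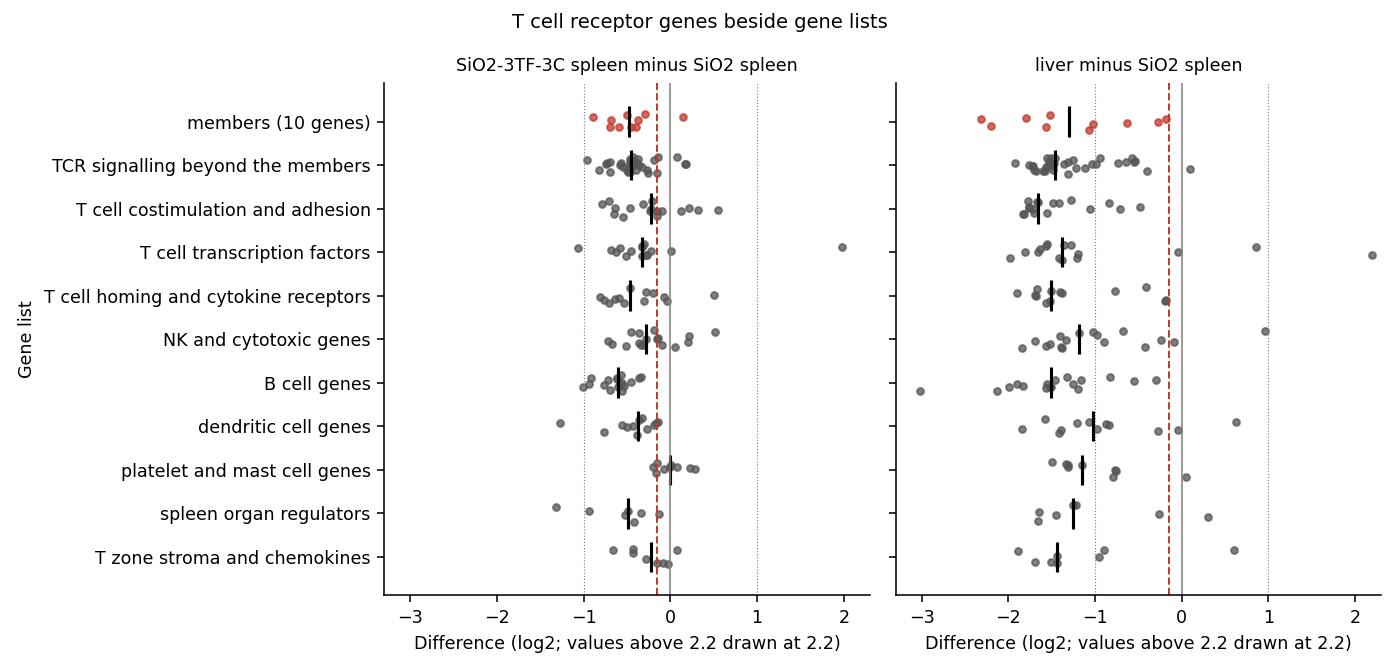
Log2 differences (x axis) of the 10 genes, in red, and of genes of 10 lists, in grey, for SiO2-3TF-3C spleen minus SiO2 spleen and liver minus SiO2 spleen; black bars are medians, dotted lines 2-fold and the dashed line the median of all genes. Values above 2.2 are drawn at 2.2. The members' median lies at -0.48 in the left panel and -1.30 in the right.

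Lists for other blood cells differed among themselves. The 17 B cell genes had a median of -0.60 in the SiO2-3TF-3C spleen, with 1 at least 2-fold lower (Cd72 at -1.01), and of -1.51 in liver, with 14 lower. Their summed level, in units of the 75th percentile of the array, was 137 in the SiO2-3TF-3C spleen, 77.2 in liver and 203 in the SiO2 spleen, and that of the 10 members was 25.1 in the SiO2-3TF-3C spleen, 16.7 in liver and 37.5 in the SiO2 spleen. The 17 NK and cytotoxic genes had a median of -0.28 in the SiO2-3TF-3C spleen and -1.18 in liver, and Ncr1, an NK cell receptor, was at -0.34 in the SiO2-3TF-3C spleen and -1.39 in liver. Their summed level was 29.2 in the SiO2-3TF-3C spleen, 16.1 in liver and 36.3 in the SiO2 spleen. The 12 dendritic cell genes measured had a median of -0.38 in the SiO2-3TF-3C spleen and -1.02 in liver, with summed levels of 66.8 in the SiO2-3TF-3C spleen, 55.7 in liver and 84.2 in the SiO2 spleen. The 9 platelet and mast cell genes measured had a median of -0.01 in the SiO2-3TF-3C spleen, with 5 of 9 below 0, and of -1.15 in liver, with 8 of 9 below 0. The 12 macrophage genes had a median of -0.10 in the SiO2-3TF-3C spleen, with 8 of 12 below 0, and of 0.03 in liver, with 5 of 12 below 0. Among them Clec4f, a receptor of the liver's Kupffer cells, was at 6.41 in the SiO2-3TF-3C spleen and 9.26 in liver, and Vsig4, a complement receptor, at 4.11 in the SiO2-3TF-3C spleen and 7.01 in liver. The 16 housekeeping genes had a median of -0.14 in the SiO2-3TF-3C spleen and -0.02 in liver. The part of other cells in the values of Cd4, Cd8a and the shared genes was not tested.

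Hepatocyte genes went the other way, with a summed level of 291 in the SiO2-3TF-3C spleen, 747 in liver and 1.62 in the SiO2 spleen. Splenic organ genes lay below the SiO2 spleen along with the members in liver. Tlx1 was at -0.14 in the SiO2-3TF-3C spleen and -1.66 in liver, Nkx2-3 at -0.34 in the SiO2-3TF-3C spleen and -1.25 in liver, and Nkx2-5 at -0.42 in the SiO2-3TF-3C spleen and -1.22 in liver. The 7 splenic genes had a median of -0.49 in the SiO2-3TF-3C spleen and -1.25 in liver, with summed levels of 4.91 in the SiO2-3TF-3C spleen, 3.90 in liver and 7.31 in the SiO2 spleen. The part of spleen RNA in the liver values was not tested. The 8 genes of T zone stroma and its chemokines had a median of -0.22 in the SiO2-3TF-3C spleen and -1.44 in liver, where Ccl19, a chemokine that attracts T cells, was at -0.28 in the SiO2-3TF-3C spleen and -1.50 in liver.

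By distance from the members' median pair of differences against the SiO2 spleen, the nearest of the 16085 genes well above background on all 3 arrays were Ddb2, Apbb1ip, Pde7a, Themis and Fry. Themis, a gene of thymocyte selection, was at -0.47 in the SiO2-3TF-3C spleen and -1.32 in liver. This likeness covers 3 arrays, and 6717 genes that are no member (41.8%) lay within the members' range of both differences, so it sets few genes apart.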

How the data were processed

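RNA of each group was measured on 1 single-colour Agilent array (design 026655, genome build mm9, per the file headers). Each deposited scanner file holds background-subtracted linear intensity values per spot. Per the file headers they were extracted with Feature Extraction 11.0.1.1, while the submitters' processing notes name version 9.1. The 3 arrays shared 1 slide. RNA was purified with a kit for blood and depleted of globin messages, per the labels' protocols. The authors' deposited table holds log2 values (r from 0.993 to 0.996 with the log2 intensity of the same array) for 7 of the 10 members, and its normalization was not stated.

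Control spots and spots flagged as outliers (283 for the SiO2-3TF-3C spleen, 469 for liver, 182 for the SiO2 spleen) were left out, spots of a probe were averaged on the log2 scale, and the 75th percentile of each array was subtracted (an intensity of 515 for the SiO2-3TF-3C spleen, 390 for liver and 569 for the SiO2 spleen). Probes were named through RefSeq accessions (27038 of 39112 probes), with the table of the GRCm38.p6 assembly used for names and promoter windows only. A gene was represented by its brightest probe. A gene dim on 1 array of a comparison has a bound, and genes dim on both have no value. With 1 array per group no test was run. Differences were described by size (2-fold), and the calling step was checked on simulated data. The members and 15 gene lists were chosen with earlier results of these data known. Named are all members, up to 4 genes per list with the biggest difference between the spleens, a set of marker genes such as Tlx1 and Ncr1, and the 5 nearest genes by likeness. Some genes that this rule names are not reported here. Tools were Python 3.11.15, numpy 2.4.6, pandas 2.3.3, R 4.3.3 and limma 3.58.1. The 10 alternatives were normexp with an offset of 50 (on the median spot and background signals), quantile normalization, scaling to the median, to housekeeping genes or to B cell genes, the mean over probes, the authors' deposited table, both filters on dim genes, and outlier spots kept.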

Additional observations from a re-analysis of the deposited data

How the results depend on the processing

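For the SiO2-3TF-3C spleen against the SiO2 spleen, 97 of 97 member values under the 10 alternatives moved by less than 1.96 technical errors. Of the 97, 85 lay below 0, and the count of members past 2-fold stayed at 0. Part of this was fixed in advance. Both filters on dim genes could not change a member value, since every member was well above background on every array. The mean over probes could change only Cd4, Cd8a and Zap70, which have more than 1 probe. The members' median ranged from -0.49 with outlier spots kept to -0.09 with scaling to B cell genes. Its distance from the median of all genes stayed between -0.37 and -0.29. Scaling to B cell genes moved the median of all genes to 0.24 in that comparison and to 0.69 for liver, and scaling to housekeeping genes moved it to 0.12. For liver against the SiO2 spleen, scaling to B cell genes put the members' median at -0.48 and left 2 members at least 2-fold lower, with Cd4 at 0.63. For the SiO2-3TF-3C spleen minus liver the same scaling gave a median of 0.59 and 2 members at least 2-fold higher. Cd247 in liver reversed to 0.10 under normexp, and the cause was not tested. Cd4 in liver was at -0.66 as the mean of its probes and -1.24 in the authors' deposited table, which holds its dimmer probe alone. Over all genes, those at least 2-fold lower in the SiO2-3TF-3C spleen numbered 37 under normexp, 106 with scaling to housekeeping genes, 70 with scaling to B cell genes, 156 in the authors' deposited table, 161 with genes dim on any array left out and 555 with no filter on dim genes, against 245. Those at least 2-fold higher numbered 1460 with B cell scaling and 608 under normexp, against 924. For liver, those at least 2-fold lower numbered 305 with B cell scaling and 1425 under normexp, against 2946, and those higher 6356 with B cell scaling, against 2670. For the SiO2-3TF-3C spleen minus liver, those at least 2-fold higher numbered 701 with B cell scaling, 771 under normexp and 3119 with housekeeping scaling, against 1848, and those lower 4776 with B cell scaling, against 2729. No paired analysis was possible because each group has 1 array and no test was run, and no replicate could be left out.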

Other observations

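Dntt, the polymerase that adds bases to receptor genes in developing lymphocytes, had an intensity of 192 in the SiO2-3TF-3C spleen, 517 in liver and 221 in the SiO2 spleen, so that liver was highest at 1.77 on the log2 scale against the SiO2 spleen. Of the 6 genes of developing thymocytes, 5 had a value, and 0 differed by 2-fold in the SiO2-3TF-3C spleen. In liver 2 were at least 2-fold higher, Dntt and Cd1d1 (1.58), and Cd1d1 is made by many tissues. Gzmk, a granzyme gene, was above 0 in both comparisons with the SiO2 spleen, at 0.52 ± 0.252 for the SiO2-3TF-3C spleen and 0.96 ± 0.255 for liver. It was dim, with intensities of 28.0 in the SiO2-3TF-3C spleen, 28.8 in liver and 21.6 in the SiO2 spleen. Most NK and cytotoxic genes went the other way, with 13 of 17 below 0 in the SiO2-3TF-3C spleen and 16 of 17 in liver. Gzma, another granzyme gene, was at -0.72 in the SiO2-3TF-3C spleen and -1.34 in liver.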
